A study of Populus euphratica with 12 samples.

Results

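Broad-ovate leaves were compared with linear leaves of the desert poplar *Populus euphratica*, the ends of its leaf shape series, in 3 libraries of each (Bo1 to Bo3 and Li1 to Li3). The RNAs described were chosen by their level alone. They were the mRNAs and long non-coding RNAs (lncRNAs) with a mean of at least 0.5 FPKM over these 6 libraries, and the circular RNAs (circRNAs) above 0 in at least 2 of the 6. FPKM are fragments scaled to transcript length and library size. This rule kept 32159 of 49676 mRNAs, 1412 of 4460 lncRNAs and 201 of 1149 circRNAs. The Li libraries came from trees aged 0 to 3 years and the Bo libraries from trees over 20 years old. Both were second juvenile leaves of buds, collected from the same place in the same month. Leaf shape and tree age cannot be told apart. Lanceolate (La) and ovate (Ov) leaves, 3 libraries each, entered the model only to estimate the spread. Their means are given below as middle points. The La and Ov trees were also of ages between those of the Li and Bo trees, with La younger than Ov. A La or Ov mean between Li and Bo therefore cannot tell leaf shape from tree age either. The study calls the samples of a group biological replicates, but the labels do not say whether they are separate trees, so the p-values measure the spread between these libraries.

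Heterophylly is the bearing of differently shaped leaves by 1 plant or species. A leaf blade takes its shape from growth along its length and its width, laid out early by regulators of the upper and lower leaf side such as the YABBY and KANADI families. In Arabidopsis the change from juvenile to adult leaves follows a fall of the microRNA miR156, which releases the SPL (squamosa promoter-binding-like) transcription factors that it holds down. MADS-box factors, gibberellin and auxin act on the later steps toward flowering and on blade growth.

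On average, the libraries of a group resembled each other more than those of the other group. Spearman's correlation across the mRNAs averaged 0.893 within groups and 0.847 between them, across the lncRNAs 0.703 and 0.590, and across the circRNAs 0.367 and 0.196. These are descriptions across RNAs of the same libraries. Bo3 stood apart from Bo1 and Bo2 (0.816 and 0.846 across the mRNAs, against 0.949 between Bo1 and Bo2). Bo1 was closer to each Li library (0.886, 0.875 and 0.880) than to Bo3, and Bo3 was closer to Li1 (0.835) than to Bo1. Li1 stood somewhat apart from Li2 and Li3 (0.899 and 0.903, against 0.947 between Li2 and Li3). The 39 transcripts of photosynthesis genes summed to between 3781 and 7536 FPKM in the 6 libraries. No other tissue was compared, so these sums do not test the leaf label. The steps of the circRNA values imply totals of 81.5 to 86.0 megareads per library, but the fragments behind each FPKM are not given.

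A linear model (limma, moderated two-sided test on log2(FPKM + 1)) was fitted to all 12 libraries, and an mRNA was called at a Benjamini-Hochberg adjusted p under 0.05. Changes are Bo minus Li on that log2 scale, which understates the change of low transcripts, and errors after ± are standard errors. The test called 194 mRNAs of 191 genes, 0.603% of those tested. Of these, 147 (0.457% of those tested) were higher in Bo and 47 (0.146%) were lower. Thus 75.8% of the calls were higher in Bo. The share depended on scaling, because it was 61.8% (102 higher and 63 lower) after upper-quartile scaling and 61.5% (102 and 64) after median-ratio scaling. The median change of all mRNAs was 0.07, and 54.9% of the changes were above 0.

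The number of calls turned on single libraries. It was 637 without Bo3, 452 without Li1, 122 without Bo1, 61 without Bo2, 53 without Li3 and 45 without Li2. Of the 194 mRNAs, 173 were also called without Bo3 and 43 without Li2. In every one of the 194 the 3 Bo values lay on 1 side of the 3 Li values, a pattern shown by 26.8% of all mRNAs tested. A core of 33 mRNAs (26 higher and 7 lower) passed in each of 21 alternative fits that tested them. Those of the 33 that are named below are marked there, and the rest are not named. The 21, here and below, leave out 1 further alternative, the fit of only the Li and Bo libraries with the replicate number as a block, in which 0 mRNAs and 0 lncRNAs were called.

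**Figure D1:**
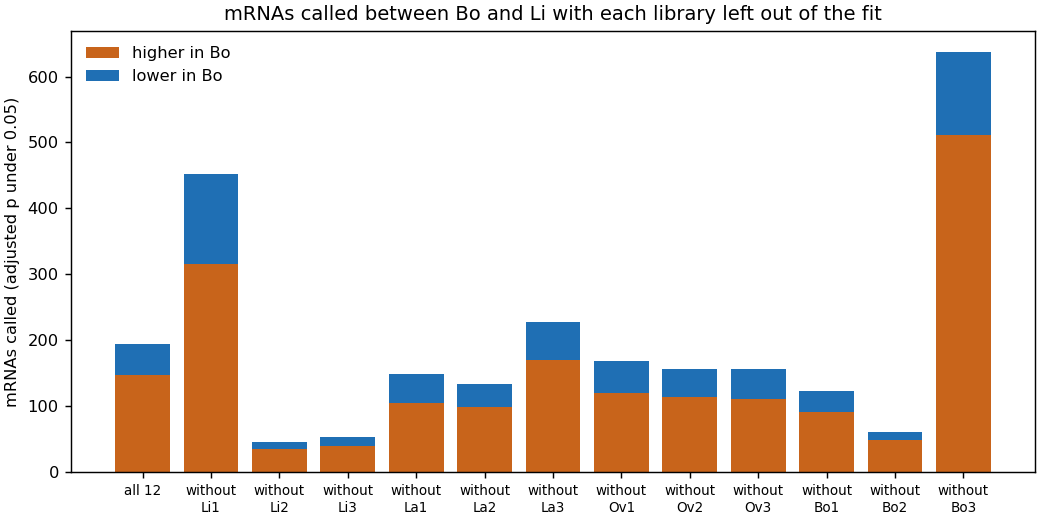
mRNAs called between Bo and Li (adjusted p under 0.05, bars, from 0) with all 12 libraries and with each library left out in turn, split by direction. The count is 194 with all libraries, falls to 45 without Li2 and reaches 637 without Bo3.

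The mRNAs that rose had a median change of 1.77 (range 0.90 to 5.12) and those that fell a median of -2.41 (sizes 1.12 to 5.65). Because these are bulk leaves, fewer cells of a type and less RNA per cell cannot be told apart in any of them. Many were close to absent in the lower group. Among those that rose, 37 were under 0.1 FPKM in every Li library and over 0.5 in every Bo library, a pattern shown by 60 of all mRNAs tested. Of those that rose, 11 were listed at 0 in all 3 Li libraries. An FPKM of 0 can be a failed estimate, since the authors' procedure divides reads among similar transcripts. Among those that fell, 9 were under 0.1 FPKM in every Bo library and over 0.5 in every Li library, a pattern shown by 47 of all mRNAs tested. The La and Ov means both lay between the Li and Bo means in 100 of the 147 that rose and 39 of the 47 that fell, against 24.4% of all mRNAs tested. The calls were chosen for a wide gap between Li and Bo, which leaves more room for other means. The 24.4% is therefore not a matched background, and these counts are a description only.

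**Figure D2:**
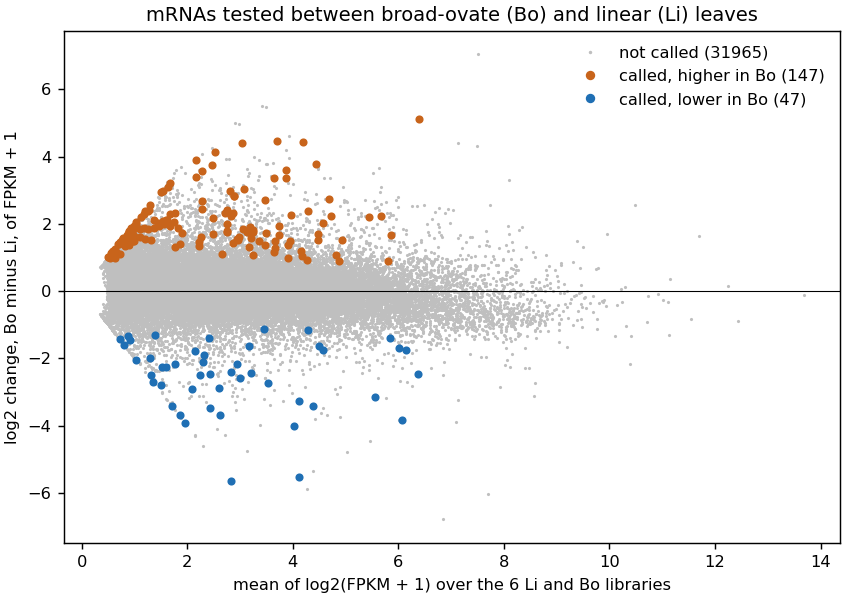
Change between Bo and Li (vertical axis, log2 of FPKM + 1) against the mean level over the 6 libraries (horizontal axis, same log2 scale) for the 32159 mRNAs tested. The 147 mRNAs called higher in Bo and the 47 called lower are coloured, and most of those higher sit at low levels.

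MADS-box genes stood among the largest rises. JOINTLESS-like proteins belong to the MADS-box family, and in tomato JOINTLESS is needed for the abscission zone of the flower stalk. One such transcript (XM_011024751.1, gene LOC105124649) was at 0.743, 1.40 and 4.08 FPKM in Li1 to Li3 and at 63.6, 53.6 and 61.9 FPKM in Bo1 to Bo3. The groups were far apart, with La at a mean of 14.4 and Ov at 35.6 FPKM. The change was 4.45 ± 0.44 (adjusted p = 0.001377), and it passed in all 21 alternatives.

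The neighbouring gene in the RefSeq gene table, LOC105124650 (XM_011024752.1), is also named JOINTLESS-like. It was at 0.947, 0.387 and 1.12 FPKM in Li and at 51.6, 37.4 and 25.2 FPKM in Bo, a change of 4.39 ± 0.58 (adjusted p = 0.007641). Unlike its neighbour it had low values in the middle groups, with means of 2.99 FPKM in La and 8.90 in Ov. Among the 21 it missed the threshold only without Li2 (adjusted p = 0.05765). A further JOINTLESS-like transcript (XM_011044761.1, LOC105138623) was already present in Li, at 11.9, 7.17 and 16.1 FPKM, and reached 58.1, 56.2 and 55.4 FPKM in Bo. Its 3 Bo values were nearly equal, and the change of 2.24 ± 0.24 (adjusted p = 0.001976) passed in all 21 alternatives.

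The study's annotation gave 8 tested MADS-box transcripts. Of these, 3 were called, all higher in Bo, against 0.457% of all mRNAs called higher. All 8 had a positive change (median 2.10), and in 7 the Bo and Li values did not overlap, as was so for 16.4% of all mRNAs in this direction. The 5 without a call included a pair of CAULIFLOWER D-like transcripts and a pair of SOC1-like ones, relatives of Arabidopsis genes that promote flower formation and flowering. The larger SOC1-like transcript (XM_011036620.1) was at 72.3, 42.8 and 102.0 FPKM in Li and at 187.6, 173.9 and 105.2 in Bo, with Bo3 just above Li3 (change 1.14 ± 0.32, adjusted p = 0.1151). That annotation covers genes that the study chose on these same samples, so the direction of such a list is not independent evidence, and this holds for each list taken from it below.

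SPL genes, which promote the adult phase in Arabidopsis, were all on the positive side. The 13 transcripts of the study's annotation had a median change of 1.09. In 11 the Bo values were above the Li values without overlap, against 16.4% of all mRNAs. Of the 13, 1 was called, against 0.457% of all mRNAs called higher. This was *SPL16* (XM_011022481.1), at 8.13, 8.49 and 8.54 FPKM in Li and 24.1, 28.2 and 18.6 FPKM in Bo. The Li values were almost identical, and the change was 1.37 ± 0.19 (adjusted p = 0.01228). It missed the threshold in the fit of only the Li and Bo libraries and without Li2, Li3 or Bo2 (adjusted p over the 21 alternatives 0.001867 to 0.07592).

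Of the 13 SPL transcripts, 9 had an unadjusted p under 0.05, as did 19.2% of all mRNAs. Only 4 of those without a call are given here. *SPL8* (XM_011034863.1) was at 12.1, 13.1 and 11.2 FPKM in Li and at 30.5, 26.3 and 20.8 in Bo (1.02 ± 0.20, adjusted p = 0.05146). *SPL9* (XM_011034944.1), one of the miR156 targets in Arabidopsis, was at 4.71, 5.69 and 4.92 FPKM in Li and at 29.7, 24.7 and 24.2 in Bo (2.15 ± 0.44, adjusted p = 0.05728). Its La mean, 6.95 FPKM, was close to Li, while Ov was at 15.7 FPKM. The *SPL2* transcripts had changes of 1.02 ± 0.23 (XM_011022433.1, adjusted p = 0.0729) and 1.33 ± 0.36 (XM_011022434.1, adjusted p = 0.1072), again with no overlap between groups. None of these 4 is counted as changed. These and the other list members without a call that are given below were picked after their values were seen.

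Among gibberellin-related transcripts, 1 showed the largest rise of all called mRNAs. Gibberellin-regulated proteins are small cysteine-rich secreted peptides. The transcript of a gibberellin-regulated protein 1-like gene (XM_011046794.1) was at 26.7, 5.78 and 14.02 FPKM in Li and at 232.5, 399.6 and 1274 FPKM in Bo. Values within Bo differed several times over, with Bo3 the highest, and La and Ov had means of 323.9 and 464.1 FPKM, well above Li. The change was 5.12 ± 0.87 (adjusted p = 0.03115, and 0.007988 to 0.1482 over the 21 alternatives). It missed the threshold without Li2, Li3 or Bo2, without a filter, and with only the Li and Bo libraries.

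The other 4 gibberellin transcripts of the annotation were not called. A further 1-like transcript (XM_011046793.1) had a change of 3.65 ± 0.83 (adjusted p = 0.07371), with Li1 at 63.9 FPKM far above Li2 and Li3 (4.67 and 6.48). The transcripts named 9-like had negative changes of -2.78 and -1.90 (adjusted p = 0.09009 and 0.07038), and 1 for a gibberellin 20 oxidase, an enzyme of gibberellin synthesis, had a change of 1.45 ± 0.39 (adjusted p = 0.1022).

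Auxin-induced proteins of the 22D kind belong to the Aux/IAA repressors, which auxin induces and which hold back its response. Both called members fell. The 22D-like transcript (XM_011031590.1) was at 32.1, 56.1 and 44.2 FPKM in Li and at 15.2, 15.1 and 7.36 in Bo (-1.76 ± 0.30, adjusted p = 0.0314). The 22D transcript (XM_011029229.1) was at 33.1, 37.9 and 46.1 FPKM in Li and at 14.2, 15.3 and 7.40 in Bo (-1.64 ± 0.31, adjusted p = 0.04431). In each the Ov mean (15.0 and 15.2 FPKM) was already at the Bo level. These calls were near the threshold, and the second one passed in only 9 of 21 alternatives.

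Of the 11 auxin transcripts of the annotation, 8 had a negative change (median -1.49). The 2 called were lower, against 0.146% of all mRNAs called lower. The largest positive change in that list was that of an auxin-repressed 12.5 kDa-like transcript (XM_011038207.1), at 3.03, 0.913 and 1.02 FPKM in Li and 10.6, 26.4 and 93.4 in Bo (3.64 ± 0.89, adjusted p = 0.08592). A list of 30 auxin transcripts chosen by Arabidopsis gene symbols had a median of 0.06, close to the 0.07 of all mRNAs, and no call.

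**Figure D3:**
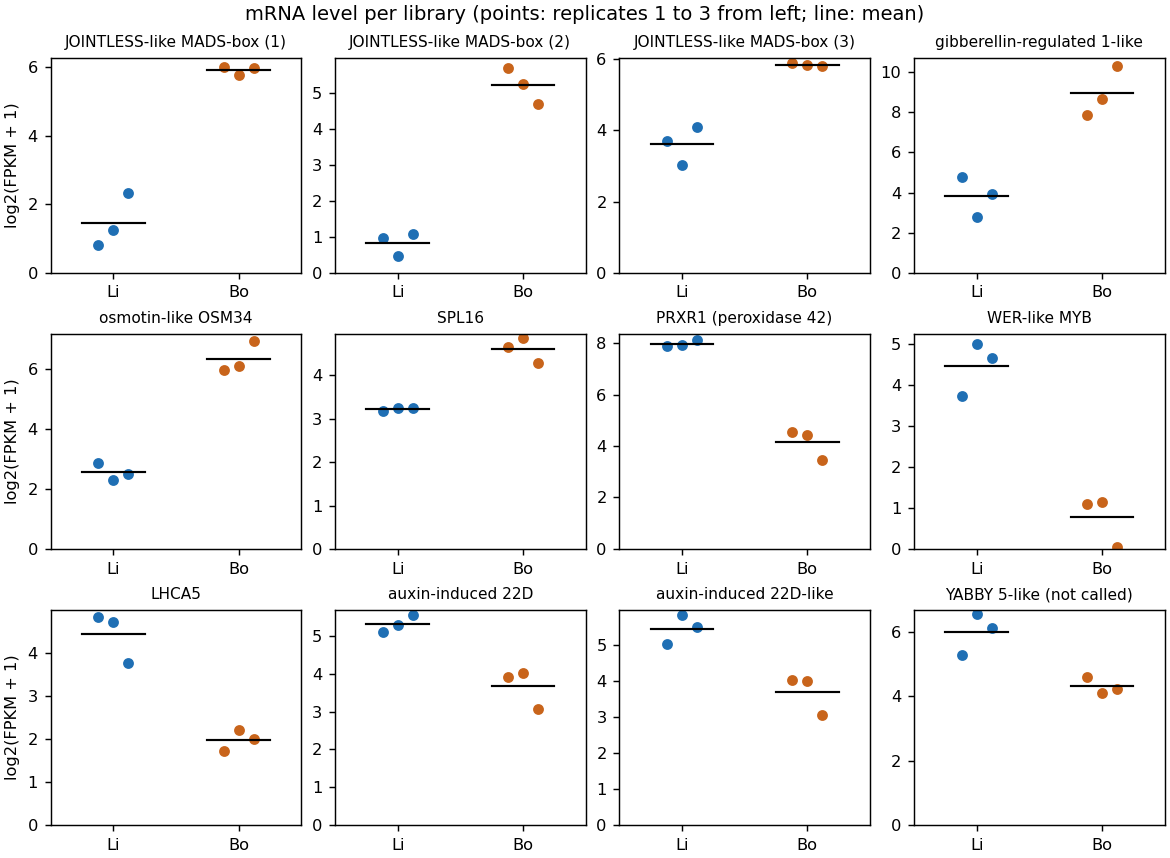
Levels of 12 mRNAs per library as log2(FPKM + 1), Li in blue and Bo in orange, with a line at the mean of the 3 log2 values and a vertical axis from 0 in each panel. The first 6 are higher in all Bo libraries and the last 6 lower. YABBY 5-like has no overlap either, but its adjusted p was 0.06641.

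Stress and defence genes were found among the rises. Osmotin-like OSM34 (XM_011030919.1), of the thaumatin family of pathogenesis-related proteins, was at 6.32, 3.91 and 4.62 FPKM in Li and at 62.2, 67.3 and 121.7 in Bo. The change of 3.79 ± 0.48 (adjusted p = 0.006088) passed in all 21 alternatives, and La and Ov means (56.1 and 77.8 FPKM) were near Bo1. A transcript named for the resistance protein At5g63020 (XM_011047369.1), of the family of intracellular pathogen receptors, was at 6.53, 3.44 and 2.11 FPKM in Li and at 18.2, 16.4 and 15.1 in Bo (1.90 ± 0.30, adjusted p = 0.02497).

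These were the 2 calls among 34 disease resistance transcripts of the annotation (0.457% of all mRNAs were called higher). The median of the 34 was 0.06, with 17 positive and 17 negative changes. In the symbol list of 21 defence transcripts none was called. That list had a median of 0.54, 9 of the 21 were higher in all Bo than in all Li libraries (16.4% of all mRNAs were) and 0 lower, and its summed level was 131.0, 194.2 and 181.2 FPKM in Li and 267.1, 254.9 and 317.3 in Bo. The median was 0.91 without Bo1. *WRKY51* (XM_011027286.1), of the WRKY transcription factors that act in plant defence, was at 0.925, 3.09 and 2.41 FPKM in Li and 14.9, 12.1 and 28.9 in Bo (2.62 ± 0.53, adjusted p = 0.05645). *SIB2* (XM_011028932.1), whose Arabidopsis namesake binds a sigma factor and takes part in defence, was at 1.995, 7.16 and 5.86 FPKM in Li and 45.1, 19.9 and 21.2 in Bo (2.33 ± 0.49, adjusted p = 0.05926).

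Enzymes and transporters made up several other large rises. A probable mannitol dehydrogenase (XM_011027119.1) was at 3.46, 2.60 and 3.60 FPKM in Li and at 36.8, 39.0 and 84.5 in Bo (3.59 ± 0.46, adjusted p = 0.006). A transcript similar to the ubiquitin ligase At4g11680 (XM_011046621.1), an enzyme class that tags proteins with ubiquitin, was at 1.15, 0.288 and 0.229 FPKM in Li and at 12.7, 17.4 and 31.3 in Bo (3.74 ± 0.43, adjusted p = 0.003278). A G-family ABC transporter, 23-like (XM_011005962.1), of a family that moves compounds across membranes, was at 1.49, 1.40 and 1.55 FPKM in Li and at 18.5, 16.3 and 21.3 in Bo (2.98 ± 0.29, adjusted p = 0.001377). In all 3 the groups did not overlap, and each passed in all 21 alternatives.

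Less stable rises were those of FK506-binding protein 4 (XM_011017496.1), a protein-folding enzyme, of a Zm38-like MYB factor (XM_011047545.1) and of a gp1-like cell wall protein (XM_011001139.1). FK506-binding protein 4 was at 1.43, 5.29 and 2.79 FPKM in Li and 17.5, 31.8 and 103.9 in Bo (3.37 ± 0.59, adjusted p = 0.03686), the MYB factor at 7.53, 1.97 and 2.77 and at 27.0, 39.0 and 90.4 (3.36 ± 0.53, adjusted p = 0.02406). The gp1-like transcript was at 9.50, 7.83 and 9.53 FPKM in Li and at 35.0, 55.4 and 143.2 in Bo (2.74 ± 0.47, adjusted p = 0.03115). In all 3 Bo3 was the highest library. They passed in 10, 17 and 13 of 21 alternatives, and the gp1-like and FK506-binding transcripts missed the threshold under both other scalings.

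Genes without a product name were also among the largest rises. LOC105121866 (XM_011020711.1) was at 0, 0.314 and 0.212 FPKM in Li and at 8.89, 14.4 and 34.0 in Bo (3.901 ± 0.41, adjusted p = 0.001976). Its La and Ov means, 0.187 and 0.391 FPKM, were those of Li, so the transcript stood out in Bo alone among the 4 group means. LOC105118878 (XM_011016934.1) was at 1.65 FPKM in Li1 and under 0.001 in Li2 and Li3, against 13.8, 15.0 and 11.8 in Bo (3.39 ± 0.34, adjusted p = 0.001377). LOC105121652 (XM_011020383.1) was at 1.05 FPKM in Li1, under 0.001 in Li2 and 0.340 in Li3, against 4.75, 21.0 and 36.2 in Bo (3.58 ± 0.55, adjusted p = 0.02068). The first of these and LOC105118878 passed in all 21 alternatives. LOC105116248 (4.43 ± 0.77, adjusted p = 0.03427), LOC105129448 (4.13 ± 0.75, adjusted p = 0.03951) and LOC105132521 (3.04 ± 0.55, adjusted p = 0.03914) passed in 14, 11 and 9.

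The falls were led by LOC105119234 (XM_011017359.1), which has no product name. It was at 20.3, 65.1 and 88.5 FPKM in Li and under 0.001 FPKM in each Bo library, with La and Ov means of 0.136 and 1.47 FPKM (-5.65 ± 0.66, adjusted p = 0.003349). LOC105109114 (XM_011003714.1) was at 82.6, 188.7 and 104.8 FPKM in Li and at 3.81, 0.801 and 0.952 in Bo (-5.53 ± 0.57, adjusted p = 0.001569). LOC105111078 (XM_011006321.1) was at 23.7, 8.11 and 14.6 FPKM in Li and under 0.001 in each Bo library (-3.93 ± 0.36, adjusted p = 0.001368). All 3 passed in all 21 alternatives. LOC105129578 (-4.03 ± 0.67, adjusted p = 0.02925), LOC105109671 (-3.42 ± 0.60, adjusted p = 0.03568) and LOC105113625 (-3.26 ± 0.62, adjusted p = 0.04609) passed in 17, 14 and 8.

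PRXR1 (peroxidase 42, XM_011039349.1), a class of secreted peroxidases that act on cell wall polymers, had the highest Li level among the falls named here. It was at 234.8, 242.1 and 276.4 FPKM in Li and at 22.3, 20.8 and 10.1 in Bo, with La at a mean of 128.8 and Ov at 65.9 FPKM. The values stepped down from Li to La, Ov and Bo, and the change of -3.82 ± 0.43 (adjusted p = 0.002499) passed in all 21 alternatives. A WER-like MYB factor (XM_011033035.1), named for the Arabidopsis WEREWOLF gene that sets the fate of root epidermal cells, was at 12.2, 30.9 and 24.3 FPKM in Li and at 1.15, 1.21 and 0.0393 in Bo (-3.69 ± 0.46, adjusted p = 0.005785), again in all 21.

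The named falls included several enzymes. An NADP-dependent glyceraldehyde-3-phosphate dehydrogenase (XM_011019701.1), which oxidises a sugar phosphate and yields NADPH, was at 38.4, 90.4 and 89.08 FPKM in Li and at 8.23, 8.19 and 2.09 in Bo (-3.43 ± 0.48, adjusted p = 0.0115). A CYP71A1-like cytochrome P450 (XM_011037426.1) was at 80.2, 207.3 and 165.9 FPKM in Li and at 31.9, 16.7 and 5.77 in Bo (-3.16 ± 0.58, adjusted p = 0.04069). The lambda-class glutathione S-transferase L3-like transcript (XM_011050133.1, -2.91 ± 0.47, adjusted p = 0.02497) and alcohol dehydrogenase-like 3 (XM_011042336.1, -2.49 ± 0.46, adjusted p = 0.04167) had highest Bo values of 0.979 and 0.0767 FPKM, below lowest Li values of 6.68 and 3.75. With the transcripts of its gene summed, the dehydrogenase that yields NADPH had a change of -1.25 (adjusted p = 0.05984).

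Further named falls were those of a centromere protein, a nuclear pore component, a polyadenylation factor and a gene without a product name. A centromere protein X-like transcript (XM_011042144.1), in animals part of the kinetochore, was at 14.3, 18.9 and 17.8 FPKM in Li, under 0.001 in Bo1 and Bo2 and 3.16 in Bo3 (-3.47 ± 0.51, adjusted p = 0.01494). SEH1-like (XM_011024223.1), a component of the nuclear pore, was at 26.9, 10.6 and 12.8 FPKM in Li and at 3.27, 1.14 and 0.252 in Bo (-2.87 ± 0.44, adjusted p = 0.02037). The polyadenylation factor fip-1-like (XM_011005529.1) had a change of -2.41 ± 0.40 (adjusted p = 0.02925), but its gene summed over transcripts had -0.66 (adjusted p = 0.2366). LOC105133009 (XM_011036784.1) was at 13.6, 11.3 and 11.1 FPKM in Li and at 0.0299, 0.00573 and 0.0143 in Bo (-3.67 ± 0.66, adjusted p = 0.03767), while its gene sum had -0.34 (adjusted p = 0.497). For these last 2 the change is one of the transcript and not shown for the gene.

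Photosynthesis transcripts leaned to the negative side, with 1 call (0.146% of all mRNAs were called lower). Of 39 tested, 36 had a negative change, the median was -0.51, and 15 were lower in all Bo than in all Li libraries with 0 higher, against 10.4% of all mRNAs that were lower without overlap. The called member was *LHCA5* (XM_011031648.1, product chlorophyll a-b binding protein 4), an antenna protein of photosystem I, at 27.4, 24.98 and 12.5 FPKM in Li and 2.31, 3.60 and 3.01 in Bo (-2.45 ± 0.42, adjusted p = 0.03093). It missed the threshold without Li1, Li2, Bo1 or Bo2, and the median of the list was -0.30 without Li1.

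Abundant antenna genes showed smaller differences. *LHCA3* (XM_011009894.1) was at 579.9, 422.0 and 387.6 FPKM in Li and at 337.0, 246.3 and 137.9 in Bo (-1.01 ± 0.35, adjusted p = 0.1628), and *LHCB3* (XM_011046236.1) at 218.9, 154.0 and 176.8 and at 132.2, 69.0 and 33.4 (-1.41 ± 0.46, adjusted p = 0.1472). The photosynthesis list summed to 7536, 4751 and 5061 FPKM in Li and to 4594, 3828 and 3781 in Bo. Hence Li1 was the library with the highest sum, and the groups did not overlap. Of 49 chlorophyll and plastid transcripts, 14 were lower and 5 higher without overlap, against 10.4% and 16.4% of all mRNAs. This list had a median of -0.30 and no call. Its smallest adjusted p, 0.07371, was that of *PTAC7* (XM_011046368.1), a component of the plastid RNA polymerase complex, at 45.4, 44.3 and 36.4 FPKM in Li and 26.0, 21.7 and 20.5 in Bo (-0.86 ± 0.20).

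**Figure D4:**
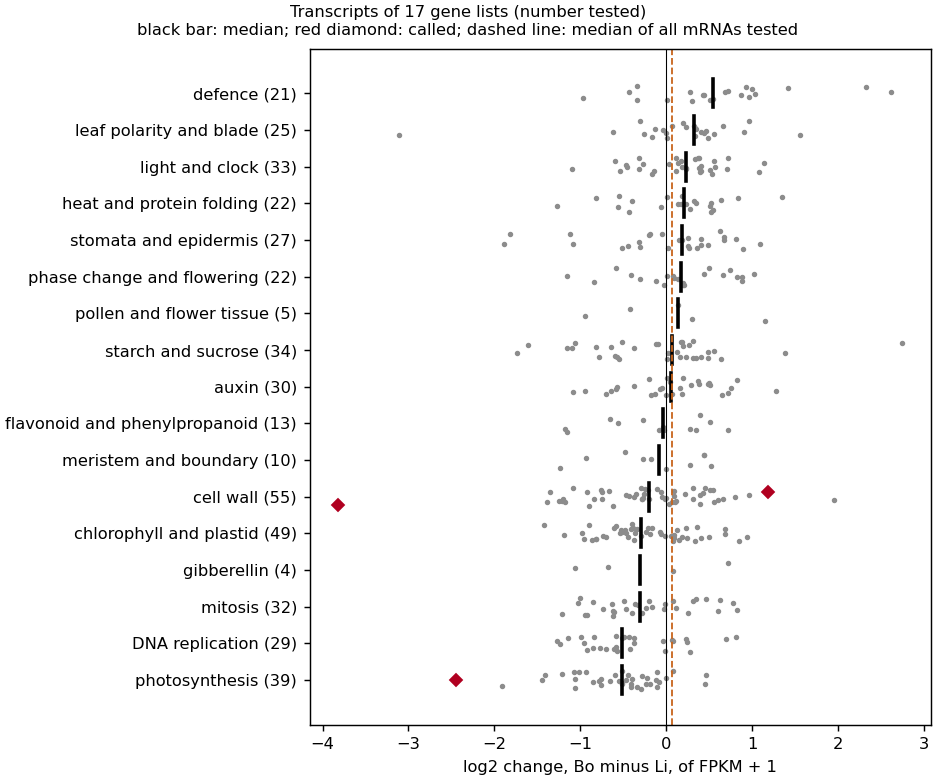
Change between Bo and Li (log2 of FPKM + 1) of every tested transcript in 17 lists chosen by gene symbol, with the list's median as a black bar and called transcripts as red diamonds. 3 of 449 transcripts are called, against 0.603% of all mRNAs tested. The dashed line is the median of all mRNAs, 0.07. Defence has the highest median (0.54) and photosynthesis the lowest (-0.51).

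Leaf polarity regulators were not called in either direction. The 25 transcripts of polarity and blade genes had a median of 0.32. Without overlap, 5 were higher and 1 lower, against 16.4% and 10.4% of all mRNAs tested. The median of these 25 was 0.18 without Li1 and without Bo1. By contrast, of the 11 YABBY and KANADI transcripts of the annotation, the 4 tested all had negative changes (median -1.01). None of the 4 was called, and 1 was lower without overlap. *YABBY 5-like* (XM_011021842.1), which in Arabidopsis belongs to a family that marks the lower leaf side, was at 38.3, 93.1 and 68.5 FPKM in Li and at 23.4, 16.2 and 17.6 in Bo (-1.68 ± 0.37, adjusted p = 0.06641). Its La and Ov means were 33.4 and 31.4 FPKM. A *YABBY 1* transcript (XM_011019167.1) was at 5.67, under 0.001 and 5.25 FPKM in Li and at 0.00221, 0.514 and 0 in Bo (-1.59 ± 0.76, adjusted p = 0.2804), so Li2 overlapped Bo. The *KAN2* transcript XM_011029815.1, a lower-side regulator in Arabidopsis, was not tested, since its mean was 0.466 FPKM. It was at 0.176, 0.0758 and 0.00109 FPKM in Li and at 0.576, 0.967 and 1.002 in Bo. Its low values thus lay the other way from those of the tested transcripts, with no overlap.

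The member with the largest difference in the polarity list was an *AS1* transcript (XM_011021561.1), a MYB factor of upper-side identity in Arabidopsis. It was at 9.68, 15.5 and 9.70 FPKM in Li and at 0.0186, under 0.001 and 1.87 in Bo (-3.11 ± 0.77, adjusted p = 0.08951). The gene summed over transcripts had a change of -0.64 (adjusted p = 0.2795), so little of that difference remained at the gene. *TCP20* (XM_011002658.1), a growth regulator, was at 22.3, 20.8 and 19.3 FPKM in Li and 29.98, 33.4 and 37.0 in Bo (0.66 ± 0.16, adjusted p = 0.08546), and *LUG* (XM_011021442.1), a co-repressor, at 27.4, 28.2 and 29.8 and at 41.2, 38.3 and 41.7 (0.49 ± 0.15, adjusted p = 0.1359). Both had tight groups that did not overlap.

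Phase change and flowering genes chosen by symbol (22 transcripts) had a median of 0.17 and no call. The symbol SEP1 placed in it a transcript whose product is stress enhanced protein 1 of the chloroplast (XM_011032103.1), which is not a flowering gene. It was at 88.4, 70.3 and 58.7 FPKM in Li and at 42.02, 26.7 and 27.8 in Bo (-1.16 ± 0.23, adjusted p = 0.05645). Light and clock genes (33 transcripts) had a median of 0.23 and no call. The smallest adjusted p there, 0.07744, was that of *PRR5* (XM_011004994.1), a clock component in Arabidopsis, at 16.4, 11.2 and 15.4 FPKM in Li and 29.2, 35.7 and 28.5 in Bo (1.08 ± 0.25).

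Cell division genes varied widely among the Bo libraries. The 29 DNA replication transcripts had a median of -0.51 and no call. Only 1 was free of overlap, on the higher side, against 16.4% of all mRNAs higher and 10.4% lower. The median was -0.08 without Bo3, -0.96 without Bo1 and -0.83 without Li1. Their sum was 263.1, 446.3 and 473.8 FPKM in Li and 508.8, 262.1 and 157.9 in Bo, so Bo1 was the highest and Bo3 the lowest of the 6. *PCNA2* (XM_011036911.1), the replication clamp, was at 26.7, 52.1 and 57.7 FPKM in Li and 58.8, 13.6 and 6.71 in Bo (-1.23 ± 0.76, adjusted p = 0.3912). The mitosis list (32 transcripts) had a median of -0.31 and no call, with Bo3 again lowest, at 514.6 FPKM against 1062 to 1630 in the other 5 libraries. Without Bo3 the mitosis median was -0.03 and 2 transcripts were called higher. The part of these library differences in the other results was not tested.

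Cell wall genes held 2 calls among 55 transcripts (0.603% of all mRNAs were called), PRXR1 (lower) and *FLA14*, a fasciclin-like arabinogalactan protein of the cell surface (XM_011036422.1). *FLA14* was listed at 0 in all 3 Li libraries and was at 1.202, 1.10 and 1.57 FPKM in Bo (1.19 ± 0.18, adjusted p = 0.02117). The median of the list was -0.20, with 3 higher and 8 lower without overlap, against 16.4% and 10.4% of all mRNAs. Without Bo3 the median was -0.02, with 3 called higher and 1 lower. A beta-galactosidase 13-like transcript (XM_011047969.1), from the annotation, was at 0.134, 0.107 and 0.159 FPKM in Li and 3.67, 2.76 and 2.76 in Bo (1.84 ± 0.20, adjusted p = 0.002304, in all 21 alternatives). Stomata and epidermis genes (27 transcripts, median 0.18) held no call, and their median ranged from -0.04 without Bo1 to 0.40 without Bo3, where 3 were called higher. *SDD1* (XM_011026189.1), a protease that limits stomata in Arabidopsis, was at 4.93, 5.58 and 5.40 FPKM in Li and at 1.03, 1.22 and 0.0873 in Bo (-1.89 ± 0.50, adjusted p = 0.1002). *STOMAGEN* (XM_011026266.1), a peptide that promotes them, was at 20.3, 17.7 and 20.4 and at 8.77, 6.32 and 1.70 (-1.82 ± 0.65, adjusted p = 0.1744).

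No transcript was called in the lists of meristem and boundary genes (10 transcripts, median -0.09), gibberellin genes (4, -0.30), flavonoid and phenylpropanoid genes (13, -0.04, read against the median of -1.62 for the 16 such transcripts of the annotation), starch and sucrose genes (34, 0.07), heat and protein folding genes (22, 0.21) or pollen and flower tissue genes (5, 0.14). Except for gibberellin, each of these medians changed sign when 1 of the libraries was left out. The pollen and flower list was low in every library, at 13.6 to 23.4 FPKM in sum. Within the starch list, *AMY1* (XM_011018904.1), an alpha-amylase that breaks down starch, was at 11.1, 3.88 and 5.13 FPKM in Li and at 13.8, 47.7 and 151.9 in Bo (2.75 ± 0.78, adjusted p = 0.12), with a wide spread within Bo. Among lists of the annotation, 55 ribosomal protein transcripts had a median of -1.13 and no call. Without overlap, 41 of the 55 were lower and 1 higher, against 10.4% and 16.4% of all mRNAs. The 9 aquaporin transcripts, membrane water channels, had a median of -1.42 and no call.

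Several called regulators were picked after their values were seen. *SQN* (XM_011001655.1), a cyclophilin that delays adult leaf traits in Arabidopsis, was at 11.6, 18.3 and 15.5 FPKM in Li and at 3.99, 4.03 and 4.36 in Bo (-1.63 ± 0.26, adjusted p = 0.02412). A BEL1-like homeodomain factor (XM_011048117.1), of a family that pairs with KNOX proteins, was at 7.45, 2.44 and 3.36 FPKM in Li and 17.4, 13.2 and 20.7 in Bo (1.83 ± 0.31, adjusted p = 0.02962). Summed over transcripts, its gene had a change of 1.6 (adjusted p = 0.08562). Of the 3 transcripts of topless-related protein 4-like, a transcriptional co-repressor, 2 were called, at 0.97 ± 0.16 (XM_011019495.1, adjusted p = 0.02962) and 1.06 ± 0.15 (XM_011019496.1, adjusted p = 0.01303). These 2 rises were small but the groups were tight, from 17.5 to 20.2 FPKM in Li and from 37.4 to 42.8 in Bo for the second transcript. They passed in 15 and 17 of 21 alternatives, and *SQN* and the BEL1-like transcript in 16 each.

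Kinases and stress regulators of the same kind of choice included a pair of HT1-like transcripts, whose Arabidopsis namesake acts in the stomatal response to carbon dioxide. The first (XM_011023600.1) was at 17.9, 16.6 and 16.5 FPKM in Li and 38.1, 53.9 and 64.2 in Bo (1.53 ± 0.21, adjusted p = 0.01026), and the other (XM_011015125.1) at 2.93, 2.24 and 2.98 and at 10.1, 11.4 and 13.0 (1.75 ± 0.25, adjusted p = 0.01384). *ALS3* (XM_011050146.1), a transporter for aluminium tolerance in Arabidopsis, had a change of 2.23 ± 0.40 (adjusted p = 0.03706), and an ethylene-responsive factor 1B-like transcript (XM_011030493.1) 2.71 ± 0.50 (adjusted p = 0.04159). The pectate lyase P59 transcript (XM_011027652.1), which cuts pectin, was at 0.169, 0.279 and 0.356 FPKM in Li and 4.02, 2.86 and 3.85 in Bo (1.85 ± 0.20, adjusted p = 0.00224). Of these 5, only the pectate lyase passed in all 21 alternatives. A mitochondrial tRNA thiouridylase-like transcript (XM_011047138.1) was at 3.15, 3.12 and 3.07 FPKM in Li and under 0.001 in each Bo library and in the La and Ov means (-2.04 ± 0.16, adjusted p = 0.0008472). It also passed in all 21 alternatives.

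Transcripts of 1 gene were compared with each other. No gene had transcripts called in opposite directions, while at an unadjusted p under 0.05, which 19.2% of all mRNAs passed, 63 of 407 genes with 2 or more such transcripts did. In 3 of the 63 a transcript was called. The clearest was a homolog of WDR12, a ribosome assembly factor in yeast. Its transcript XM_011001790.1 was at 0.00966, 0.00746 and 0.0383 FPKM in Li and at 9.45, 8.63 and 3.89 in Bo (2.96 ± 0.27, adjusted p = 0.001368, in all 21 alternatives). The partner XM_011001789.1 was at 26.3, 29.5 and 27.0 FPKM in Li and at 11.5, 8.19 and 8.05 in Bo (-1.496 ± 0.40, adjusted p = 0.107). Their sum had a change of -0.74 (adjusted p = 0.3201), so the rise was not seen in the sum over the gene. The other called ones were signal peptide peptidase-like 1 (XM_011050430.1, -2.16 ± 0.37, adjusted p = 0.03115, gene sum 0.04) and LOC105134389 (XM_011038786.1, -1.33 ± 0.25, adjusted p = 0.04446).

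A splicing factor of the SR family, RS31-like (XM_011024834.1), was at 2.19, 0.528 and 0.321 FPKM in Li and 5.54, 5.87 and 6.03 in Bo (1.87 ± 0.34, adjusted p = 0.03794, gene sum 1.72). A transcript named in the study's text for its qPCR assay was that of an ATP sulfurylase. ATP sulfurylase 1-like (XM_011028982.1), the first enzyme of sulfate assimilation, was at 48.7, 203.2 and 195.3 FPKM in Li and 37.1, 62.2 and 36.5 in Bo, where Li1 overlapped Bo (-1.49 ± 0.48, adjusted p = 0.148). Pairs of genes can share reads. LOC105135039 and LOC105116664 (XM_011039711.1 and XM_011014104.1) had identical values in all libraries and count as 2 of the 194 calls, although their reads cannot be told apart (2.82 ± 0.53, adjusted p = 0.04303).

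The same test on lncRNAs called 16, or 1.13% of 1412. Of these, 12 (0.85%) were higher in Bo and 4 (0.283%) lower, and 292 (20.7%) had an unadjusted p under 0.05. The median change of all lncRNAs was 0.23, and 0.05 after upper-quartile scaling, a shift of 0.19, against which the rises are to be read. After upper-quartile scaling 9 lncRNAs were called higher and 5 lower, and after median-ratio scaling 7 and 4. Of 1107 annotated lncRNAs tested, 9 were called higher and 2 lower, and of 305 assembled by the authors 3 and 2. Leaving out Bo3 gave 40 calls and leaving out Li1 gave 32, while 10 were left without La1, 4 without Bo2, 3 without Li3 and 2 with Li2 left out. No function is annotated for any of them.

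The smallest p among lncRNAs was that of XR_843136.1 (LOC105129801), under 0.001 FPKM in each Li library and at 5.16, 5.04 and 4.75 FPKM in Bo. Its La and Ov means were under 0.001 as well, so it was seen in the Bo group alone (2.58 ± 0.18, adjusted p = 1.676e-05, in all 21 alternatives). XR_844356.1 (LOC105136503) was at 14.9, 14.8 and 18.0 FPKM in Li and at 0.942, 0.639 and 0 in Bo, with La at 9.84 and Ov at 6.28 (-3.51 ± 0.32, adjusted p = 0.00015, in all 21). Among the 16, these 2 alone passed in all 21.

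Larger rises rested on spread values. XR_845338.1 (LOC105141300) was at 18.9, 1.49 and 0.954 FPKM in Li and at 102.9, 91.7 and 33.9 in Bo (3.92 ± 0.77, adjusted p = 0.04013). XR_845232.1 (LOC105140761) was at 3.25, 1.63 and 1.76 FPKM in Li and at 23.9, 46.5 and 77.9 in Bo (3.86 ± 0.66, adjusted p = 0.01642). XR_841839.1 (LOC105123342) was at 3.56, 0.0894 and 0.0141 FPKM in Li and at 17.7, 21.7 and 26.5 in Bo (3.73 ± 0.64, adjusted p = 0.01642). In the first and the last Li1 was far above Li2 and Li3.

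The remaining annotated calls were higher in Bo except XR_843408.1 (LOC105131343), at 11.9, 14.1 and 18.0 FPKM in Li and 1.52, 2.10 and 0.0669 in Bo (-2.93 ± 0.47, adjusted p = 0.01642). The others were XR_841212.1 (3.203 ± 0.66), XR_842452.1 (2.25 ± 0.45), XR_842974.1 (2.06 ± 0.42), XR_842659.1 (1.77 ± 0.27) and XR_841287.1 (1.01 ± 0.18), with adjusted p from 0.01547 to 0.04432. The lncRNA XR_843201.1 (LOC105130215), which also had a qPCR assay, was not called. It was at 1.38, 1.46 and 0.981 FPKM in Li and 3.89, 6.58 and 8.11 in Bo (1.62 ± 0.45, adjusted p = 0.09791).

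Among the assembled lncRNAs, positions are those of the authors' files on the PopEup_1.0 assembly. TCONS_00031028 lies on the minus strand of scaffold NW_011499899.1 from 857388 to 860265, opposite the mRNA XM_011036092.1. It was at 2.30, 10.7 and 9.58 FPKM in Li and at 0.406, 0.357 and 0.0687 in Bo (-2.55 ± 0.44, adjusted p = 0.01642). The mRNA on the other strand was under 1 FPKM in each of the 6 libraries and was not tested. TCONS_00036043 lies on the plus strand of scaffold NW_011499922.1 from 273611 to 293616, opposite XM_011040124.1 (LOC105135304), and was at 7.89, 3.02 and 2.76 FPKM in Li and 0.530, 0.138 and under 0.001 in Bo (-2.09 ± 0.35, adjusted p = 0.01642). Its partner mRNA had a change of -1.06 ± 0.43 (adjusted p = 0.2236). The libraries were strand-specific, so the strands of each pair were counted apart.

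TCONS_00064440, an intergenic transcript on the minus strand of scaffold NW_011500517.1 from 93326 to 96210, was at 0.927, 0.210 and 0.103 FPKM in Li and 8.47, 11.2 and 2.85 in Bo (2.48 ± 0.41, adjusted p = 0.01642). TCONS_00055145 (2.97 ± 0.62, adjusted p = 0.0455) and TCONS_00052792 (2.21 ± 0.46, adjusted p = 0.04563) were also called higher, and passed in 8 and 4 of 21 alternatives.

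circRNAs were given as RPM, reads over the back-splice junction scaled to library size, and the read numbers given here are inferred from them. With the lowest RPM of a library taken as 2 junction reads, every value above 0 came within 0.01 of a whole number. No count test was run on these reads. Libraries held 153 to 188 circRNAs above 0. Of the 201 tested, only 22 were above 0 in all 6 libraries and 80 had at most 10 junction reads in all 6 together. By the authors' classes 177 were sense-overlapping, 13 exonic, 8 intergenic and 3 antisense. The limma test on log2(RPM + 0.0116) called 0 of 201 (0.0%), while 41 (20.4%) had an unadjusted p under 0.05. The fit of only the Li and Bo libraries called 2, and with 1 of the 6 libraries left out the count was 2 to 9.

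The numbers of RNAs above 0 per library did not differ detectably between the groups. The difference of means, Bo minus Li, was 197.3 mRNAs (exact permutation p = 0.3), 46.3 lncRNAs (exact permutation p = 0.4) and 9.3 circRNAs (exact permutation p = 0.6). With 3 libraries against 3 such a two-sided test cannot go below 0.1. Total junction reads averaged 7775 per library in Li (SD 2314, n = 3) against 4898 in Bo (SD 1244), with an exact permutation p of 0.2.

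The largest part of that difference came from circRNA_0974. This circRNA, on the minus strand of scaffold NW_011500185.1 from 44746 to 105870, had 3058, 5198 and 7270 junction reads in Li and 3353, 2549 and 597 in Bo. It took from 16.6% of all junction reads in Bo3 to 71.9% in Li3, and Li1 overlapped Bo (adjusted p = 0.2087). Without it the groups had 2600 (SD 213) and 2731 (SD 259) junction reads (exact permutation p = 0.6), so the remaining circRNAs differed by 131.3 reads in the other direction. Its overlapping mRNA XM_011007004.1 (LOC105111597) was at 1557, 2281 and 2845 FPKM in Li and 1353, 1110 and 410.9 in Bo (-1.34 ± 0.63, adjusted p = 0.2714), with the libraries in nearly the same order.

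Of the 201 circRNAs, 29 (14.4%) had values that did not overlap between the groups, 16 (7.96%) higher in Bo and 13 (6.47%) higher in Li. Among them 9 were seen in all Bo and no Li library and 6 in all Li and no Bo library. A count of 0 allows up to 3 reads in a library, and this and the read numbers cover counting error only. The strongest in reads was circRNA_0826 (minus strand, NW_011500041.1, 342919 to 350295), with 46, 70 and 60 junction reads in Li and 0 in each Bo library (adjusted p = 0.1349). Its mRNA XM_011001126.1 was abundant in both groups, at 202.0, 278.6 and 261.2 FPKM in Li and 228.7, 147.7 and 113.3 in Bo (-0.64 ± 0.45, adjusted p = 0.4485).

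In the other direction, circRNA_1102 (minus strand, NW_011500786.1, 12661 to 37272) had 0 reads in each Li library and 41, 23 and 86 in Bo (adjusted p = 0.1493). Its mRNA XM_011013694.1 (LOC105116366) was at 4.80, 1.53 and 0.717 FPKM in Li and 11.7, 11.4 and 26.7 in Bo (2.48 ± 0.61, adjusted p = 0.08441). circRNA_0771 (minus strand, NW_011500003.1, 452498 to 468956) had 4, 25 and 4 reads in Bo and 0 in Li. Of the 15, circRNA_0151 and circRNA_0725 did not exceed 3 reads in any library, the limit given above. circRNA_0839, with the smallest p (adjusted p = 0.05375), rested on 4, 3 and 3 reads in Bo.

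**Figure D5:**
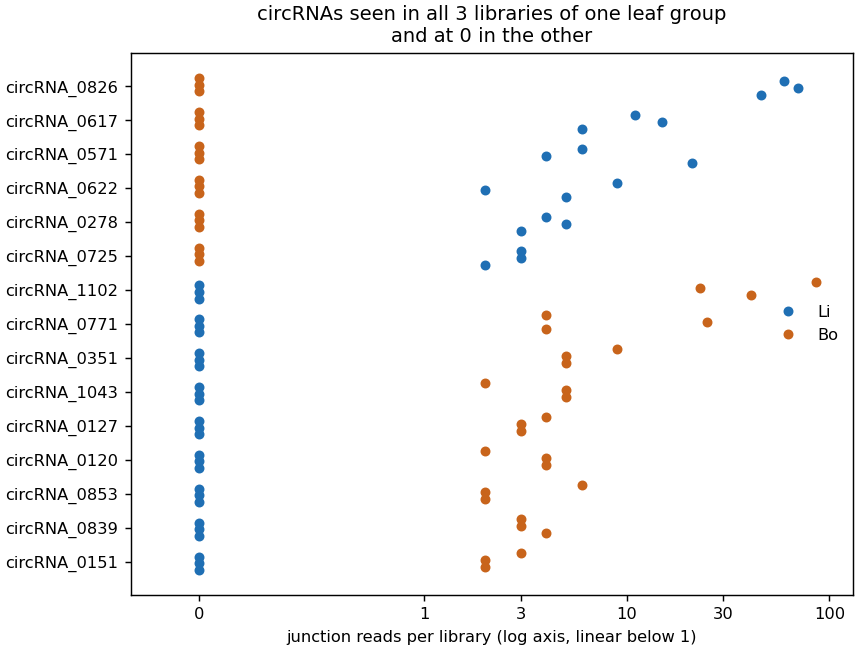
Junction reads per library (log axis, linear below 1) of the 15 circRNAs seen in all 3 libraries of 1 leaf group and at 0 in the other, Li in blue and Bo in orange. The upper 6 are Li circRNAs and the lower 9 Bo circRNAs. circRNA_0826 and circRNA_1102 have 23 or more reads in each library of their group, while 4 of the Bo circRNAs have at most 4 reads in any library.

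For these 15 circRNAs, the overlapping mRNA was tested for 13. In 10 of the 13 the mRNA had a change of the same sign as the circRNA, and 0 of the 13 mRNAs were called. The same share over all tested circRNAs is not given here, and the 15 were picked for their all-or-none pattern. The count of 10 is therefore a description only. circRNA_0617 (minus strand, NW_011499936.1, 584744 to 637194) had 6, 15 and 11 reads in Li and 0 in Bo, and its mRNA XM_011041918.1 was at 3.55, 3.18 and 2.91 FPKM in Li and 1.28, 0.390 and under 0.001 in Bo (-1.52 ± 0.54, adjusted p = 0.1768). circRNA_0622, on the same scaffold, went with an mRNA of the other direction. It had 5, 2 and 9 reads in Li and 0 in Bo, and XM_011041911.1 was at 12.2, 34.2 and 22.4 FPKM in Li and 135.9, 41.4 and 52.3 in Bo (1.61 ± 0.67, adjusted p = 0.2291). circRNA_0351 and circRNA_0349 come from the same mRNA, XM_011029125.1, and share an end. They had 5, 5 and 9 and 15, 11 and 21 reads in Bo, against 0, 0 and 0 and 0, 4 and 5 in Li, so they are not independent of each other.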

How the data were processed

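Leaf RNA was extracted in total, depleted of ribosomal RNA and made into strand-specific (dUTP) libraries, per the labels. For mRNAs and lncRNAs the deposited unit is FPKM, which the authors made with Bowtie2 alignment to RefSeq transcripts (several alignments allowed per read) and eXpress, so near-identical transcripts share reads. Assembled lncRNAs came from Cufflinks. The deposited circRNA values are RPM, which the authors made with CIRI. The assembly was PopEup_1.0.

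Groups came from sample titles. RNAs with a mean of at least 0.5 FPKM over the 6 libraries (circRNAs above 0 in at least 2) were tested with limma 3.58.1 in R 4.3.3, with trend, on log2(FPKM + 1) or log2(RPM + 0.01162), 4 group means over 12 libraries, two-sided, with Benjamini-Hochberg adjustment within each class at 0.05. The procedure was checked on simulated mRNA values. Their noise was drawn independently for each mRNA and library, so the check does not cover a library that stands apart, such as Bo3. Single values per library were compared by exact permutation. Alternatives were other pseudocounts, filters and scalings, a fit without trend, only the Li and Bo libraries, the replicate number as a block, gene sums, and each library left out.

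Named mRNAs were the 12 largest changes in each direction among calls without overlap, the same among genes with a name, the called members of lists and those the study's text names; list members without a call and the called regulators given beside them were chosen after their values were seen; named lncRNAs were those called, and named circRNAs those of smallest p or seen in 1 group only. The members and lists were chosen with earlier results of these data known. Lists by symbol were written after the symbols were read and stand in place of planned protein families, since no protein table was used here. Symbols came from a RefSeq gene table of the assembly version after the study's, used for names and neighbours only, and matched 49440 of 49676 mRNAs. Product names for 1187 genes came from the part read of the study's annotation.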

Additional observations from a re-analysis of the deposited data

How the results depend on the processing

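Unadjusted p under 0.05 was reached by 6162 mRNAs, 292 lncRNAs and 41 circRNAs, and by transcripts of opposite direction in 63 genes. With only the Li and Bo libraries fitted, 108 mRNAs and 2 circRNAs were called, and 50 of those mRNAs were among the 194. Without the filter on low values 10 lncRNAs were called. With circRNAs required above 0 in at least 1 of 6 libraries 3 were called, and in at least 3 of 6, 1. Transcripts called in the lists by symbol numbered 3, against 5 without the filter, 5 after upper-quartile scaling and 5 after median-ratio scaling. With 1 library left out, the calls ranged from 45 to 637 for mRNAs, 2 to 40 for lncRNAs, 0 to 9 for circRNAs and 1 to 15 for the lists (15 without Bo3, 1 without Li2 or Bo2). For circRNAs they were 9 without Bo3, 7 without Li1, 5 without Li2, 3 without Li3 and 2 without Bo1 or Bo2.

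Labels give Li and Bo the same replicate numbers. Same-numbered mRNA deviations from the group mean correlated at -0.209, 0.066 and -0.148, and those of different numbers at -0.16 to 0.234. La and Ov were not part of this check, and a group has only 3 libraries. It therefore cannot show whether the number stands for something shared. With the replicate number as a block, 260 mRNAs (161 of the 194 among them) and 6 list transcripts were called, and with the block and only the Li and Bo libraries 0 mRNAs, 0 lncRNAs and 0 list transcripts. Differences that turned were that in circRNAs above 0 per library (from 9.3 to -0.5 without Li2, range -0.5 to 16.5) and that in junction reads (from -2877.7 to 131.3 without circRNA_0974). Other direction changes were 13 of 374 list medians and 0 of 2656 values of 124 named RNAs, of which 492 lost the threshold. The causes were not tested. The planned count test on junction reads was not run. The fragments behind each FPKM are not given, which limits what can be said of mRNAs listed at 0.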
